A study of Mus musculus with 12 samples.

Results

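The proteasome genes of the mouse were taken as the 50 protein-coding genes, of 21911 in the GENCODE M21 basic annotation (chromosomes 1 to 19, X and Y), whose symbols begin with Psma, Psmb, Psmc, Psmd, Psme, Psmf or Psmg. Their open chromatin was read from lists of ATAC-seq peaks, places where the Tn5 transposase could insert sequencing adapters into accessible DNA. Peaks of all libraries that overlapped by 1 bp or more were joined into 48244 regions, and the 80 regions whose nearest annotated transcription start site (TSS) belonged to a proteasome gene are described here. The rule used no measured difference between groups. The cells were microglia, the resident immune cells of the brain, from wild-type female mice aged 3, 14 or 24 months that had been injected intraperitoneally with lipopolysaccharide (LPS) or with PBS as the control. Each of the 6 groups of age and treatment had 2 libraries, 12 in all, and each library pooled the cells of 2 to 3 mice, so the libraries of a group were separate pools. The sources differ on the time between injection and collection, which is not given here, and on whether sorted cells or nuclei of frozen tissue entered the assay.

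The 26S proteasome degrades proteins that carry ubiquitin. Its 20S core holds rings of alpha (Psma) and beta (Psmb) subunits, and its 19S cap has a base of ATPases (Psmc) that unfold the substrate and non-ATPase subunits (Psmd) that recognise and deubiquitinate it. In immune cells and under interferon, the catalytic beta subunits Psmb5, Psmb6 and Psmb7 can be replaced by Psmb8, Psmb9 and Psmb10, and the core can carry the PA28 activator of Psme1 and Psme2. This immunoproteasome yields peptides suited to MHC class I molecules. The symbol rule also took in assembly chaperones (Psmd5, Psmd9, Psmd10 and Psmg1 to Psmg4), the other activators Psme3, Psme4 and Psme2b, the inhibitor Psmf1, and Psmc3ip, a factor of meiotic recombination that is not a proteasome subunit.

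Sequences of regions outside the main promoter peaks of the subunits, where LPS and PBS libraries differed in area or calls, are shown first. Each is given as 201 bases around the summit on the GRCm38.p6 (mm10) reference, or the part of it outside annotated exons. The first region had a larger peak area with LPS, and the next had a smaller one. The third was called in every PBS library and in 1 LPS library, and the last was called only with LPS. The third and the last did not pass the tests described below, and some promoters had smaller adjusted p-values than the second. Capitals mark matches, on either strand, to consensus letters of factors that act in stimulated macrophages: AP-1 (TGANTCA), C/EBP (TTGCNNAA), STAT (TTCNNNGAA), IRF (GAAANNGAA), PU.1 (AGGAAGT) and NF-kB by its name.
Psma1, 40.5 kb upstream (chr7:114316501-114316701, plus strand): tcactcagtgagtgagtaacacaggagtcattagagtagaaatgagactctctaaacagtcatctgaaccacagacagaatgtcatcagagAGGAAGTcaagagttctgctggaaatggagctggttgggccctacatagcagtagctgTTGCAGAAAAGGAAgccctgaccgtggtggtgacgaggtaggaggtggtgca
Psma1, 41.4 kb upstream (chr7:114317456-114317656, plus strand): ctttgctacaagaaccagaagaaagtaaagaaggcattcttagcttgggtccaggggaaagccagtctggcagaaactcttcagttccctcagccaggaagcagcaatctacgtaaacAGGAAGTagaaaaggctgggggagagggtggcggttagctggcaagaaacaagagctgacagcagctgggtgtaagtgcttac
Psma1, 35.2 kb upstream (chr7:114311209-114311409, plus strand): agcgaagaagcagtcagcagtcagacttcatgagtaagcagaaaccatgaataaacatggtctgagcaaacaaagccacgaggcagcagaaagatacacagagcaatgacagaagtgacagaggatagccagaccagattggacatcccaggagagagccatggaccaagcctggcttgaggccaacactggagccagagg
Psme2, 880 bp inside the gene (chr14:55590150-55590307, plus strand): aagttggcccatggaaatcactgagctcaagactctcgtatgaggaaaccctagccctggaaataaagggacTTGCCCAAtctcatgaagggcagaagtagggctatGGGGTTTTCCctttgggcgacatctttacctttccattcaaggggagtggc
The window that gained area near Psma1 held letters of PU.1 and an overlapping pair of C/EBP and IRF matches, and the neighbour that lost area held PU.1 letters. The window that appeared with LPS inside Psme2 held a C/EBP and an NF-kB match, and the window listed mainly with PBS held none of the 6. Among all 48244 summit windows of this length, a C/EBP match was present in 9.59%, an IRF match in 7.74%, a PU.1 match in 22.1% and an NF-kB match in 7.57%. A match is a description of letters, and their absence says only that they are not in these windows. Over the 80 proteasome gene windows, IRF letters were present in 18 (22.5%) and AP-1 letters in 4 (5%, against 10.4% of all windows). C/EBP letters were present in 3 (3.75%), PU.1 letters in 11 (13.75%) and NF-kB letters in 6 (7.5%).

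Promoters of proteasome genes shared another short element. The letters CGGAAG, the core of sites for ETS factors, were found on either strand in 24 of 45 RefSeq promoters (53.3%; 250 bases before to 50 after the start, 42 genes matched by symbol), against 21.1% of 21262 promoters of protein-coding genes. Among promoters whose start lay in a region called in all 12 libraries, the shares were 57.5% of 40 and 37.3% of 8689. The matches were spread unevenly over the complex. They were present in 9 of 9 promoters of 19S non-ATPase subunits and 5 of 6 of the base ATPases, in 2 of 8 of the alpha ring and 2 of 4 of the constitutive beta ring, in the promoter of the thymus subunit Psmb11, and in 0 of 6 promoters of the 5 immunoproteasome genes. These counts leave out 8 genes whose promoters were not searched (Psma8, Psmb1, Psmb2, Psmb7, Psmc3, Psmd3, Psmd7 and Psmg2), and 4 of the 6 summit windows near their starts held the letters (Psmb1, Psmb7, Psmc3 and Psmd7). In 20 of the 24 promoters the nearest match lay within 100 bases of the start. The same share was not counted over other promoters, so it is not read as a trait of the members. Stretches before the start and outside annotated exons are shown for 4 subunits of the 19S cap, with CGGAAG or its complement in capitals, and for 2 immunoproteasome genes, which held none.
Psmd2 (chr16:20651402-20651651, plus strand): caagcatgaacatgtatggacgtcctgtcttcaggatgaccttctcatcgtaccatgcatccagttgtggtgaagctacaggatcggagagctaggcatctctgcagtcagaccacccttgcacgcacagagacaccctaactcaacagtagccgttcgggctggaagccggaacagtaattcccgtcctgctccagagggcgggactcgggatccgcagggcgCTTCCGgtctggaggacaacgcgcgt
Psmd11 (chr11:80428365-80428614, plus strand): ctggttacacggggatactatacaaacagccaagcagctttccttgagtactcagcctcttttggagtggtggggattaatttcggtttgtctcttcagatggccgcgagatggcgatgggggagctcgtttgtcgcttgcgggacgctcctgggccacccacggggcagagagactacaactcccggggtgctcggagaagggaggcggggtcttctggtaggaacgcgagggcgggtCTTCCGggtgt
Psmd12 (chr11:107479278-107479483, plus strand): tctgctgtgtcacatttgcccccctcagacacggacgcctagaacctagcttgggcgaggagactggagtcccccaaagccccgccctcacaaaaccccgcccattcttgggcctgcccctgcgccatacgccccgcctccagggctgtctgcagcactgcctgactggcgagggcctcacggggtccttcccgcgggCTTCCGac
Psmc6 (chr14:45329574-45329787, plus strand): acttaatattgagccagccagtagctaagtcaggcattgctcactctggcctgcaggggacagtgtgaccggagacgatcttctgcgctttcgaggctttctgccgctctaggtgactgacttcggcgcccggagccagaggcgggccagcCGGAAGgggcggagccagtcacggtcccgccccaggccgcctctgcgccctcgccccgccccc
Psmb10 (chr8:105938445-105938642, minus strand): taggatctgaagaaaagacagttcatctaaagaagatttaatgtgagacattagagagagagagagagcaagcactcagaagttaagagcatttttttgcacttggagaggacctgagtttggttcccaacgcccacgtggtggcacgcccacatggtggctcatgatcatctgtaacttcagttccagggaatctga
Psme2 (chr14:55591114-55591351, minus strand): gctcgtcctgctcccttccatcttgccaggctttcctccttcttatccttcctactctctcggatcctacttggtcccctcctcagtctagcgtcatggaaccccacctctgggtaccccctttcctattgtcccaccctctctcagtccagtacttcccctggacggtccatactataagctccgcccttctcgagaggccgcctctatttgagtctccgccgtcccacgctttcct
The search covered 12 sets of letters. The antioxidant response element (TGACNNNGC), bound by NFE2L1 and NFE2L2, which drive proteasome genes when the proteasome is inhibited, was present in 6 of 45 (13.3%, against 13.0%). IRF letters were present in 7 of 45 (15.6%, against 8.14%), including Psme1 and no other immunoproteasome gene. Of the 6 summit windows within 1 kb of immunoproteasome starts, 3 held IRF letters (Psme1, Psmb10 and the Psmb8 window 547 bp from the start). In the promoters, STAT letters were present in 3 of 45 (6.67%, against 7.69%), including Psmb8.

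The lists held 28618 to 41532 peaks per library without the reads behind them. Depth is therefore unknown, and an unlisted region may still be open below the threshold. Start sites of 6 of 8 microglia markers, including Cx3cr1, P2ry12 and Tmem119, had a region within 1 kb in all 12 libraries, while Sall1 had none in any library. None of 6 granulocyte, 6 monocyte or border macrophage, 6 lymphocyte, 5 astrocyte, 5 oligodendrocyte or 5 neuron markers had one in all 12, although Mbp had one in 11, Mog in 10 and Aldh1l1 in 4. Of 5 endothelial markers, Kdr had one in all 12, Pecam1 in 7 and Flt1 in 3. The part of such cells in the results was not tested. The second 14-month LPS library had the shortest list, and the second 24-month LPS library was the only LPS library to call one of the PBS-only regions below. Both are named where leaving them out moves a count of members by more than 1.5 times.

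Start sites of most proteasome genes were open. Of the 80 regions, 41 lay within 1 kb of the start (51.25%, against 28.8% of all regions), and 40 of these were called in all 12 libraries (97.6%, against 73.5% of all promoter regions). The 39 distal regions were called in all 12 in 17 cases (43.6%, against 40.7%). The rule gave 39 of the 50 genes at least 1 region. Of the other 11, Psma2, Psma5, Psmb9, Psmd10, Psmd13 and Psmg2 had a promoter region in all 12 libraries that lay nearer to the start of a neighbour (Mrpl32, 1700010K24Rik, Tap1, Atg4a, Sirt3 and Cep76). Psmc2 had a region by the rule, and its promoter region lay nearer to the start of Dnajc2. With these shared promoters, 45 of 50 genes had an open start site in every library. The other 5 were Psma7, Psma8, Psmb11, Psmc5 and Psme2b, for which no region within 1 kb was listed. The same share of genes was not counted over all protein-coding genes. Of RefSeq promoters, 40 of 45 for proteasome genes and 8689 of 21262 for all protein-coding genes had their start in a region called in all 12 libraries. Psma8 encodes an alpha subunit of the testis, Psmb11 the beta subunit of the thymus cortex and Psme2b resembles Psme2, whereas Psma7 and Psmc5 are parts of every proteasome. The lists used here cannot tell whether the starts of Psma7 and Psmc5 were closed or not callable.

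Peak area was ranked within each library among the 24198 regions called in all 12, and the rank is given as a percentile. The area sums significance over the length of a peak, so it is not a read count and grows with width. Proteasome promoters had a median percentile of 61.6, against 69.3 for all promoter regions, and distal proteasome regions had 41.4, against 35.8 for all distal regions. The alpha ring genes with a promoter region in all 12 libraries stood high, with 6 promoters (2 of them shared) between 77.7 for Psma1 and 89.1 for Psma3. Psma7 and Psma8 had no such region and no percentile. The beta ring spread over the whole scale, from 11.7 for Psmb4 to 85.1 for Psmb3. The 11 non-ATPase subunits of the cap ran from 28.0 for Psmd2 to 91.2 for Psmd3, and the 5 base ATPases with a region from 31.6 for Psmc1 to 88.1 for Psmc6.

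**Figure D1:**
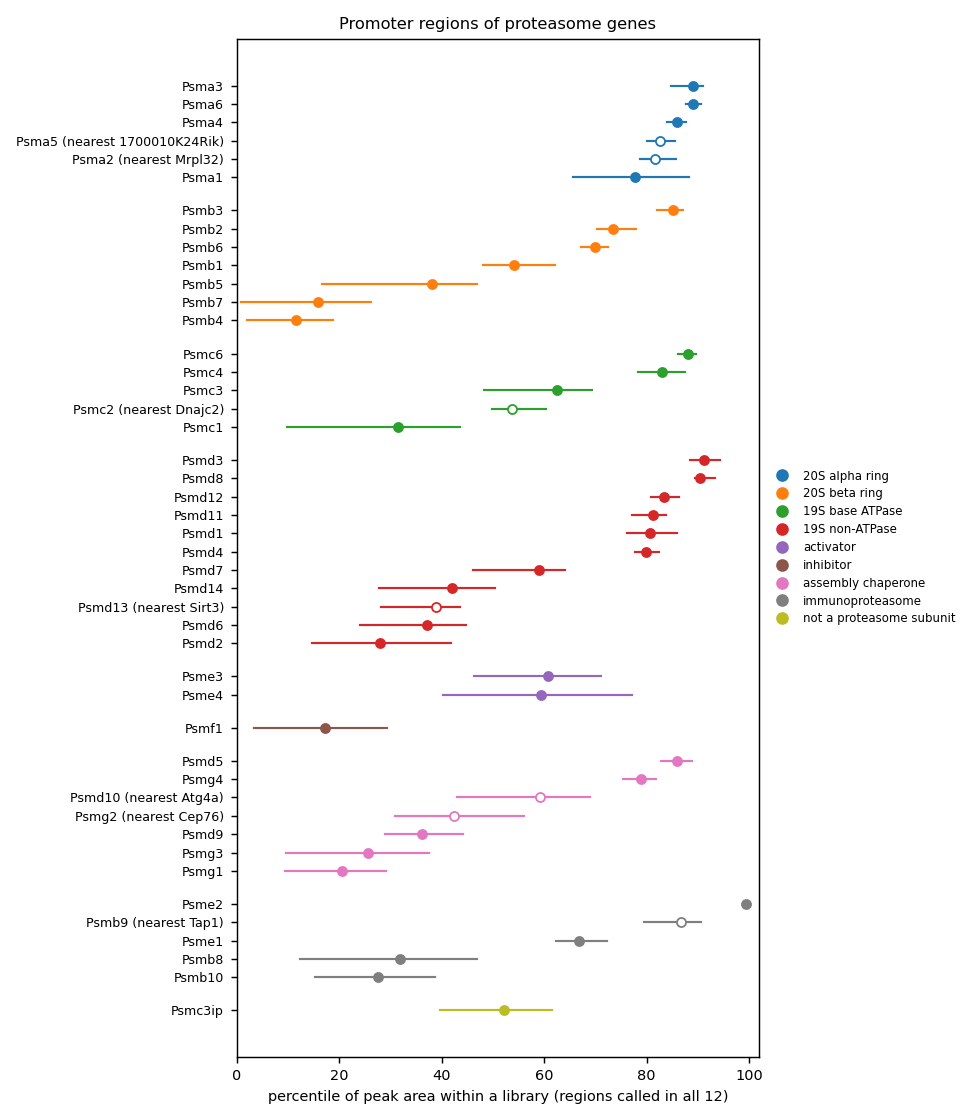
Percentile of peak area (horizontal axis) of the promoter region called in all 12 libraries for 45 proteasome genes, grouped by role, with the mean over 12 libraries as a point and the lowest and highest library as a line. Open points mark regions whose nearest annotated start is that of a neighbour. The 6 alpha ring genes shown lie between 77.7 and 89.1, while the immunoproteasome genes run from 27.6 to 99.5.

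The highest promoters were those of Psme2 (99.5, range over libraries 99.4 to 99.6), Psmd3 (91.2, 88.4 to 94.4) and Psmd8 (90.4, 89.4 to 93.3). Psmd3 and Psmd8 encode scaffold subunits of the cap. The lowest were those of Psmb4 (11.7, 1.94 to 18.9), Psmb7 (16.0, 0.911 to 26.2) and Psmf1 (17.3, 3.32 to 29.4). The highest and lowest sets were picked by these same values, so the gap between them follows from the choice. Within each set the ranges of neighbours overlapped, except that Psme2 stood above all others in every library.

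The immunoproteasome genes did not form a class by openness. Psme2 had the highest promoter region of all members, a region of 1380 bp at chr14:55590602-55591981, and Psme1, its partner in PA28, reached 66.8. Psmb10 reached 27.6, and Psmb8 had a pair of promoter regions at 31.9 (89 bp from the start) and 45.9 (547 bp). The region at the start of Psmb9, at chr17:34186926-34187946, reached 86.7. By GENCODE starts it lay nearer to Tap1, which pumps peptides into the endoplasmic reticulum. GENCODE places the Psmb9 start at 34187764 and RefSeq at 34187330, and regions were not assigned by RefSeq starts. The constitutive catalytic subunits reached 38.1 for Psmb5, 69.9 for Psmb6 and 16.0 for Psmb7. The other activators reached 60.7 for Psme3 and 59.3 for Psme4.

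Over the 6 groups, the median percentile of the 5 immunoproteasome promoter regions was below that of the 35 other promoter regions in 12 of 12 libraries. Those 5 regions came from 4 genes, with 2 regions of Psmb8 and none of Psmb9. In every group but 14-month LPS the median was that of the Psmb8 region 547 bp from the start. With 1 region per gene, shared promoters included, the immunoproteasome median was 66.8, while medians of other roles ran from 17.3 (inhibitor) to 84.2 (alpha ring). In PBS, the immunoproteasome less the others was -21.2 ± 6.39 at 3 months, -17.5 ± 14.6 at 14 months and -22.0 ± 5.33 at 24 months (percentile points, SD, n = 2 each). In LPS, it was -27.1 ± 4.70, -14.1 ± 3.61 and -16.1 ± 1.79 at the same ages (SD, n = 2 each). The mean over libraries was -19.7, with a lowest library of -30.4 and a highest of -7.16, and LPS less PBS came to 1.13, against a spread within groups of 7.31 (SD). A score over chosen members has no test here. The difference was smaller with the shared Psmb9 promoter among the immunoproteasome regions (-9.45, an alternative chosen after the values were seen) or with each region given to the gene nearest to its edge (-5.86), and larger in size with peaks under 2 times the lowest area left out (-30.9). LPS less PBS was 9.51 with area per base of peak.

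The question of the design was how this chromatin responded to LPS and to age. Areas were quantile-normalised over the 24198 regions and compared on the log2 scale by limma, with adjusted p-values (Benjamini-Hochberg over all 24198). Over ages, 2 of the 57 proteasome regions called in all 12 libraries were higher with LPS (background 14.4% of all tested) and 4 were lower (background 15.1%). Together these were 6 of the 57, against 29.5% of all regions, and 15 of the 57 had an unadjusted p under 0.05, against 40.8% of all regions. Among promoters, 4 of 40 passed (background 20.5%), and among distal regions 2 of 17 (background 36%). The median difference of the members was -0.03 on the log2 scale, the same as for all regions, and of the 57 differences 25 were above 0 and 32 below. In none of the 57 were the LPS and PBS libraries fully separated after normalisation. The same count was not made over all regions, so it is not read as a trait of the members. Without the second 24-month LPS library 13 passed (38.5% of all regions), and 12 without both LPS libraries named above (35.9% of all regions). The p-values measure the spread between pools of mice, which over ages also takes in differences of the LPS response between ages. Fewer cells with an open site cannot be told apart from a site less open in each cell.

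**Figure D2:**
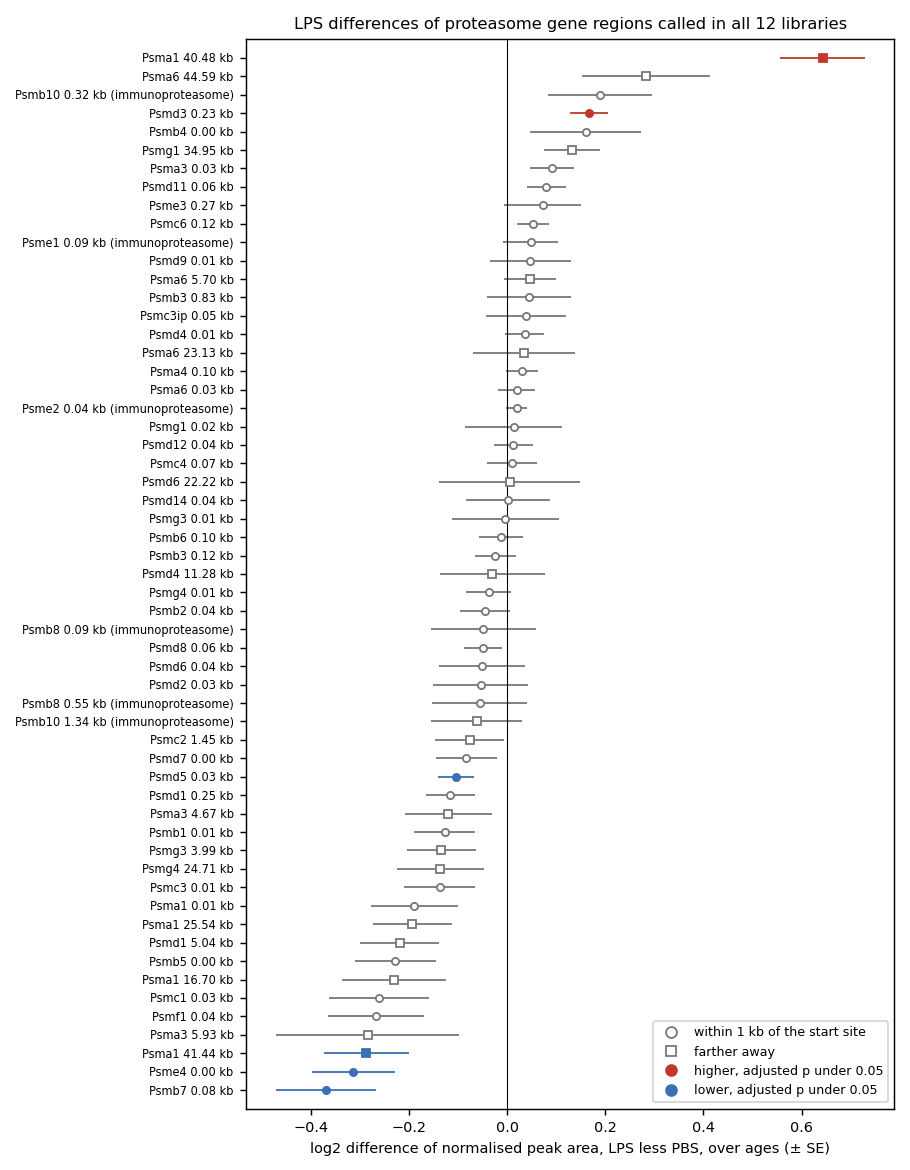
Log2 difference of normalised peak area, LPS less PBS over ages, with its SE (horizontal axis), for the 57 proteasome gene regions called in all 12 libraries, labelled by gene and distance from the start. Circles are promoter regions, squares distal ones, and filled red or blue symbols passed the test. The Psma1 region at 40.48 kb stands apart at 0.64, and all 6 immunoproteasome regions are open symbols.

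The clearest change was at Psma1, which encodes an alpha subunit of the 20S core. Upstream of its promoter lay 7 distal regions, and the one 40.5 kb from the start (chr7:114316279-114316805, in an intron of 4933406I18Rik) rose with LPS. In PBS libraries its normalised area was 1022 and 927 at 3 months, 785 and 816 at 14 months, and 726 and 635 at 24 months. In LPS libraries it was 1228 and 1311, then 1340 and 1607, then 1170 and 1000. At each age both LPS libraries stood above both PBS libraries, and across ages only the first 3-month PBS library lay above the lowest LPS library. In the areas as deposited, the LPS libraries (1074 to 1331) did not overlap the PBS libraries (714 to 966). The difference over ages was 0.64 ± 0.09 (log2, SE), or 1.56-fold (limma adjusted p = 0.000145).

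The region also passed within each age, with a difference of 0.38 at 3 months (1.30-fold, limma adjusted p = 0.0470), 0.88 at 14 months (1.83-fold, adjusted p = 0.000449) and 0.67 at 24 months (1.59-fold, adjusted p = 0.0130). The call at 3 months was lost with a replicate block, without a variance trend and with area per base, where 0 proteasome regions were higher. Its distance makes Psma1 the nearest start site and no more, and no link between this region and the expression of Psma1 was measured.

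Other regions upstream of Psma1 had lower areas with LPS. The next one, 41.4 kb upstream (chr7:114317199-114317756), ran from 970 to 1257 in PBS libraries with a median of 1093, and from 743 to 990 in LPS libraries with a median of 900. It was lower over ages by -0.29 ± 0.09 (log2, SE; limma adjusted p = 0.0243). The difference was -0.56 at 3 months (adjusted p = 0.00719) and did not pass at 14 or 24 months, where the LPS libraries stood at 890 and 875, then 990 and 969. Deposited areas of the region 15.4 kb upstream were 796 to 1175 in PBS libraries, with a median of 1040, and up to 1008 in LPS libraries, with a median of 435. The region 21.2 kb upstream ran from 630 to 971 in PBS libraries, with a median of 740, and up to 664 in LPS libraries, with a median of 441. The treatments overlapped at both. Each was listed in 6 PBS and 5 LPS libraries, missing from the second 14-month and the first 24-month LPS library, respectively. When regions called in at least 6 libraries were tested, with the lowest area of the list in place of missing calls, both were lower with LPS (-1.11 and -0.77 on the log2 scale).

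The region 35.2 kb upstream (chr7:114311183-114311727) was listed in 6 of 6 PBS libraries with areas of 398 to 588, and in 1 of 6 LPS libraries, the second 24-month one, with 303. Fisher's exact test, two-sided, gave p = 0.0152 and an adjusted p of 0.0595 over the 4793 regions called in 5 to 7 libraries. At the promoter of Psma1 the normalised area ran from 1420 to 1694 in PBS and from 1164 to 1997 in LPS libraries. The promoter did not pass over ages (-0.19 ± 0.09, limma adjusted p = 0.123) and was lower at 14 months (-0.46, adjusted p = 0.0191). Without the second 24-month LPS library, the promoter passed over ages (-0.27), as did the regions 16.7 and 25.5 kb upstream (-0.28 and -0.27).

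**Figure D3:**
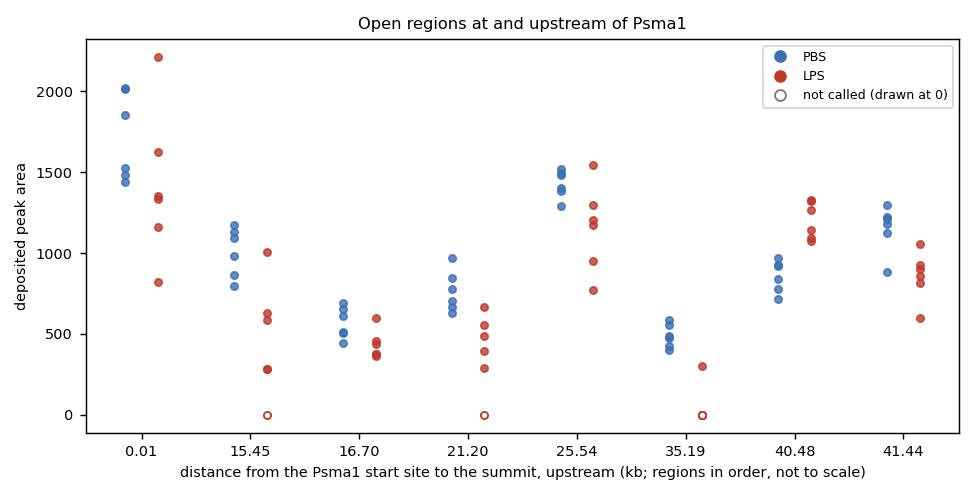
Deposited peak area (vertical axis) of the 8 regions at and upstream of Psma1, ordered by distance from the start (horizontal axis, kb, not to scale), each point being 1 library (blue for PBS, red for LPS). Open points at 0 are libraries without a call. LPS points lie above PBS points at 40.48 kb, and the LPS medians lie below the PBS medians at the other 7, as they do in 45 of the 57 proteasome gene regions called in all 12 libraries and in 74.8% of all such regions before normalisation.

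At start sites 4 promoters passed over ages, those of Psmd3, Psmb7, Psme4 and Psmd5. The promoters of Psmb5, Psma1 and Psmb10 differed by more than those of Psmd3 and Psmd5 and did not pass. The promoter of Psmd3 ran from 2011 to 2225 in PBS libraries, with a median of 2101, and from 2182 to 2569 in LPS libraries, with a median of 2377. It rose by 0.17 ± 0.04 (log2, SE), or 1.12-fold (limma adjusted p = 0.00559), and only 1 LPS library, the second at 24 months, lay within the PBS range. Per base covered by peaks it did not pass (0.10 ± 0.09). The promoter of Psmb7, the constitutive beta subunit that Psmb10 replaces, ran from 451 to 562 in PBS libraries, with a median of 498, and from 263 to 485 in LPS libraries, with a median of 427. Its difference was -0.37 ± 0.10, or 0.774-fold (limma adjusted p = 0.0150), and the lowest values were both 14-month LPS libraries.

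The promoter of Psme4, which encodes the activator PA200, ran from 900 to 1490 in PBS libraries and from 728 to 1190 in LPS libraries. At 24 months the PBS libraries stood at 1407 and 1490 and the LPS libraries at 1190 and 1072. The difference over ages was -0.31 ± 0.09, or 0.804-fold (limma adjusted p = 0.0136). The fall went with narrower peaks: the median width at Psme4 was 883 bp in PBS and 558 bp in LPS libraries, and at Psmb7 it was 451 and 256 bp. Per base covered by peaks, the differences turned positive at both (0.21 and 0.07 on the log2 scale) and did not pass. The promoter of the chaperone Psmd5 was lower by the smallest margin (-0.11 ± 0.04, adjusted p = 0.0457), and its call was lost in 17 of 21 alternative settings. Of the other constitutive catalytic subunits, Psmb5 differed by -0.23 ± 0.08 (adjusted p = 0.0506) and Psmb6 by -0.01 ± 0.04. The activator Psme3 differed by 0.07 ± 0.08, and none of them passed the threshold. Among the largest differences without a call were those 5.9 kb from Psma3 (-0.28 ± 0.19, adjusted p = 0.272) and 44.6 kb from Psma6 (0.28 ± 0.13, adjusted p = 0.121). The Psma3 region passed without the first 3-month PBS library (-0.47, adjusted p = 0.0187), and the Psma6 region when the second LPS library at 24 months was left out (0.40, adjusted p = 0.00351).

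**Figure D4:**
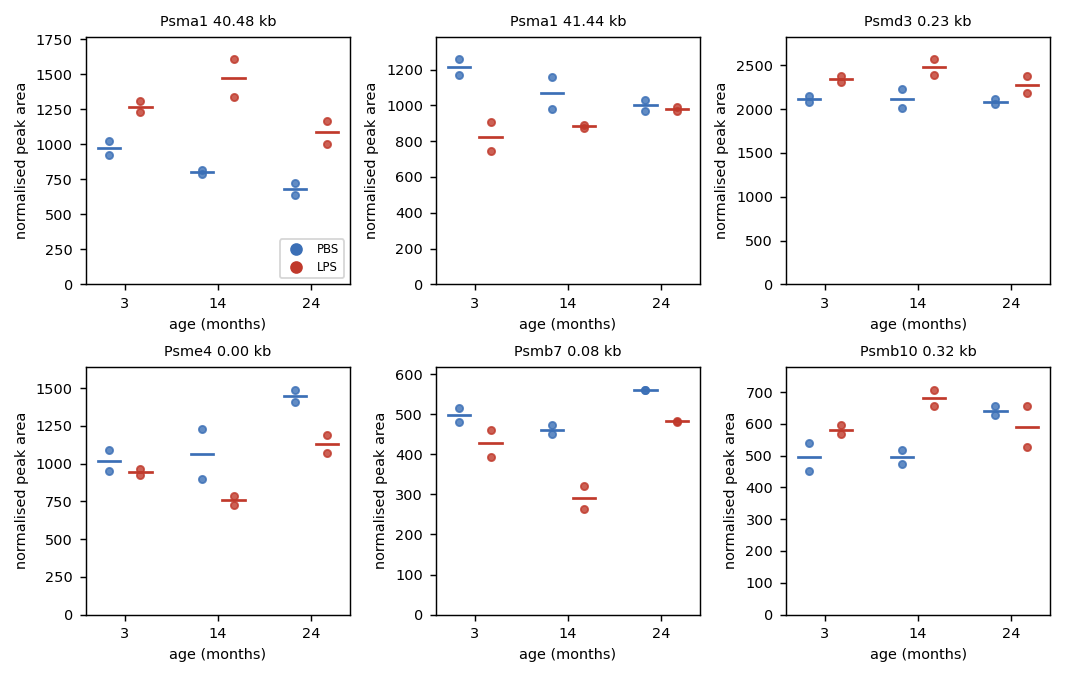
Normalised peak area (vertical axis, from 0) by age in months (horizontal axis) for 6 proteasome gene regions, titled by gene and distance from the start, each point being 1 library (blue for PBS, red for LPS) and each bar the mean of 2. Both LPS points lie above both PBS points at every age at 40.48 kb from Psma1, and below them at every age at Psmb7, while at Psmb10 they are above at 3 and 14 months only.

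Of 6 immunoproteasome regions, 0 passed in limma over ages and 0 had an unadjusted p under 0.05, against 29.5% and 40.8% of all regions. Per base covered by peaks, the sign of the difference changed at Psme1, Psme2, both Psmb8 promoter regions and the Psmb10 promoter, so no direction is given for them over ages. The promoter of Psme2 ran from 4256 to 4621 in PBS and from 4294 to 4753 in LPS libraries, a difference of 0.02 ± 0.02 (log2, SE; limma adjusted p = 0.554). The promoter of Psme1 differed by 0.05 ± 0.06, and the promoter regions of Psmb8 differed by -0.05 ± 0.11 and -0.06 ± 0.10. The shared region of Psmb9 and Tap1 ran from 1823 to 2133 in PBS and from 1575 to 2165 in LPS libraries (-0.04 ± 0.05, adjusted p = 0.627). At 14 months that shared region was lower with LPS (-0.22 ± 0.06, limma adjusted p = 0.0266). The promoter of Psmb10 showed the largest value of the group. It stood at 452 and 539 in PBS and 567 and 596 in LPS libraries at 3 months, at 517 and 474 against 656 and 708 at 14 months, and at 627 and 656 against 655 and 526 at 24 months. Over ages the difference was 0.19 ± 0.11 (adjusted p = 0.196), and at 14 months it passed (0.46 ± 0.15, 1.38-fold, limma adjusted p = 0.0409). Without the second 24-month LPS library it passed over ages as well (0.27). The intronic region of Psmb10, 1343 bp from the start, went the other way at 14 months (-0.38 ± 0.11, adjusted p = 0.0213).

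The largest separation at an immunoproteasome gene was a small site inside Psme2, 880 bp from its start (chr14:55590021-55590343). It was listed in 0 of 6 PBS libraries and in 5 of 6 LPS libraries, with deposited areas of 335 and 315 at 3 months, 288 and 233 at 14 months and 320 in the first 24-month library. The second 24-month LPS library had no call. Fisher's exact test, two-sided, gave p = 0.0152 (adjusted p = 0.0595). The mirror image was the region 13.6 kb upstream of Psmg4, which encodes an assembly chaperone of the core. It was listed in 6 of 6 PBS libraries, with deposited areas of 214 to 408, and in 0 of 6 LPS libraries (Fisher's exact test, two-sided, p = 0.00216, adjusted p = 0.0399). Of 6 proteasome regions that could be tested for presence, 0 were called as gained (background 2.67% of 4793) and 1 as lost (background 2.75%). The loss at Psmg4 did not pass without the second 3-month PBS library, either 3-month LPS library, the second 14-month PBS library, the first 14-month LPS library or both LPS libraries that stand apart, and 3 regions passed without the second 24-month LPS library. All these areas were near the lowest area in the lists, which was 200 in each.

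**Figure D5:**
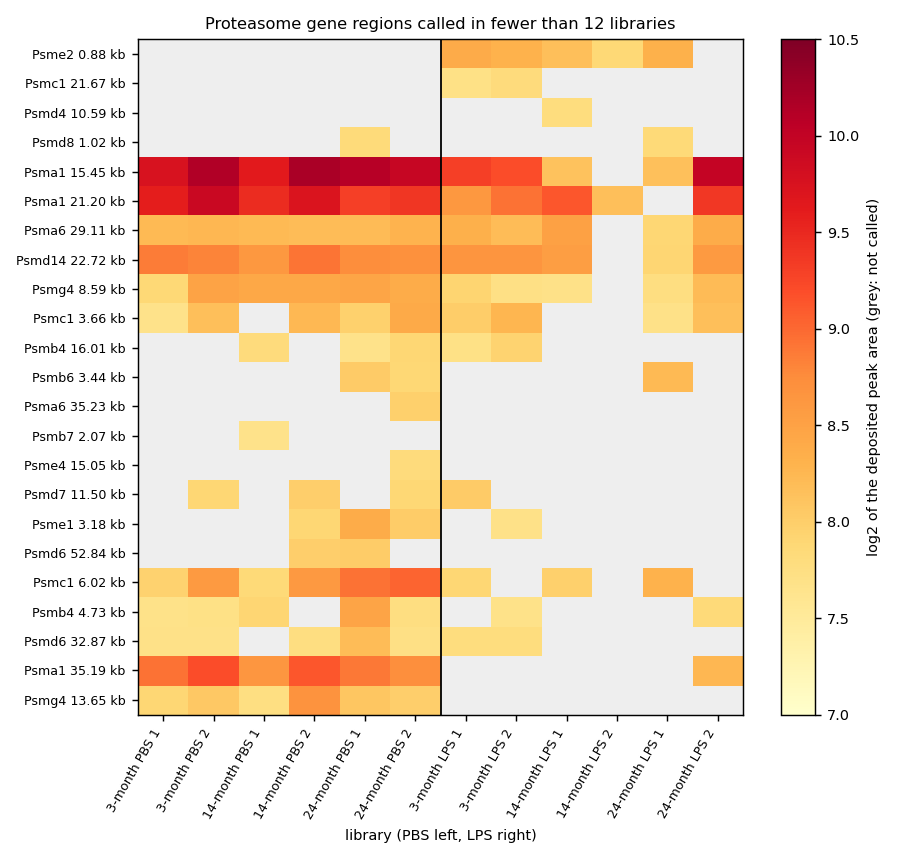
Calls and log2 deposited peak area (colour scale) of the 23 proteasome gene regions listed in fewer than 12 libraries (rows, gene and distance from the start) in 6 PBS and 6 LPS libraries (columns). Grey cells were not called. The Psme2 site at 0.88 kb is coloured in 5 LPS columns and no PBS column, the Psmg4 site at 13.65 kb in 6 PBS columns and no LPS column, and the second 14-month LPS library lacks the most regions.

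By age, LPS calls among the 57 regions were most frequent at 14 months. At 3 months 2 were higher (background 8.85%) and 1 lower (background 7.41%). Besides the Psma1 regions, the region 44.6 kb from Psma6, an alpha subunit, was higher (0.64 ± 0.19, 1.55-fold, limma adjusted p = 0.0362). This call was also lost with a replicate block and without a variance trend. At 14 months 3 were higher (background 12.7%) and 7 lower (background 12.4%), the latter being the Psma1, Psmb5, Psmb7, Psmc3 and Psme4 promoters, the intronic Psmb10 region and a region 5.9 kb from Psma3 (-0.93 ± 0.21, 0.526-fold, adjusted p = 0.00724). The catalytic Psmb5 fell by 0.40 on the log2 scale (adjusted p = 0.0469) and the ATPase Psmc3 by 0.35 (adjusted p = 0.0293). Shared promoters nearer to a neighbour's start are not among the 57. Of these, Psmb9 with Tap1 (-0.22, limma adjusted p = 0.0266) and Psmd10 with Atg4a (-0.41, adjusted p = 0.0261) were lower at 14 months. The other shared promoters did not pass. At 24 months 1 was higher (background 1.8%), the Psma1 region at 40.5 kb, and 0 were lower (background 0.45%). The counts rest on few libraries: that at 14 months was 1 when the second library of either treatment at that age was left out and 5 when the first PBS one was. That at 3 months was 0 without the first PBS or the first LPS library of that age and 1 without the second LPS library. That at 24 months was 0 without either PBS library of that age. With area per base of peak, the counts were 0 at 3 months, 1 at 14 months (the Psma1 region at 40.5 kb) and 0 at 24 months.

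Whether the response itself changed with age was tested as LPS less PBS at 24 months, less the same at 3 months. No proteasome region passed (background 0.00413%), and 6 had an unadjusted p under 0.05 in limma, against 13.2% of all regions. Presence calls could not be tested between groups of 2.

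Age in PBS microglia gave no call among the 57 (24 against 3 months, background 0.401%), while 13 had an unadjusted p under 0.05 in limma, against 21.8% of all regions. The largest values, given without a call, were 0.75 ± 0.21 (log2, SE) at the region 5.9 kb from Psma3 (adjusted p = 0.0866), -0.52 ± 0.12 at the Psma1 region at 40.5 kb (adjusted p = 0.0605), 0.51 ± 0.13 at the Psme4 promoter (adjusted p = 0.0811) and 0.48 ± 0.18 at the Psmb8 promoter region 89 bp from the start (adjusted p = 0.152). The next was 0.38 ± 0.15 at the Psmb10 promoter (adjusted p = 0.172). The Psma3 value rested on single libraries, as the normalised areas were 636 and 1122 at 3 months and 1512 and 1338 at 24 months: it was 0.34 without the first 3-month PBS library and 1.16 without the second. The PBS libraries of Psme4 stood at 950 and 1087 at 3 months, 900 and 1229 at 14 months and 1407 and 1490 at 24 months, and only the oldest pair lay above all the others. Those of the Psmb8 region stood at 629 and 524, then 554 and 554, then 778 and 821, with the same order. Without the second 14-month and the second 24-month LPS library, 8 of the 57 passed in the same PBS libraries, 4 higher (Psma3 at 5.9 kb, Psme4, Psmb8 and Psmc3ip) and 4 lower (Psma1 at 25.5 and 40.5 kb, the Psmc4 promoter and Psmg1 at 35.0 kb), against 11.6% of all regions. With either 24-month LPS library left out alone, 5 and 4 passed, against 8.89% and 8.91% of all regions, and 1 passed without the second 3-month PBS library (0.236% of all regions). Between 24 and 3 months in LPS, and between 14 and 3 months in PBS, 0 members passed (background 0% in both), with 3 and 2 at an unadjusted p under 0.05 in limma, against 3.93% and 4.36% of all regions.

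Genes that act beside the proteasome were read from lists chosen with earlier results of these data known. Of 12 regulators with a promoter region in all 12 libraries, 4 were higher with LPS over ages and 0 lower, against 7.06% higher and 13.4% lower among all promoter regions, with a median difference of 0.07, against -0.04 for all promoter regions. Nlrc5, the transactivator of MHC class I genes and of Psmb9, ran from 418 to 541 in PBS and from 608 to 684 in LPS libraries, without overlap, a rise of 0.46 ± 0.08 (log2, SE), or 1.37-fold (limma adjusted p = 0.00123). Maff, a partner of NFE2L1 and NFE2L2, rose by 0.32 ± 0.09 and Ddi2, the protease that activates NFE2L1, by 0.16 ± 0.05 (adjusted p = 0.0170 and 0.0333). Irf1, an activator of immunoproteasome genes, did not pass (0.06 ± 0.03, adjusted p = 0.212).

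Of 17 partners outside the symbol rule, 1 was higher and 1 lower, which is read against the same shares of all promoter regions, as are the next counts. Pomp, which matures the 20S core, rose by 0.30 ± 0.10 (adjusted p = 0.0351), and Akirin2, which brings proteasomes into the nucleus, fell by 0.14 on the log2 scale (adjusted p = 0.0244). Of 8 genes of antigen processing, 1 was higher, the peptide trimmer Erap1 (0.35 ± 0.11, adjusted p = 0.0337), and 1 lower, the chaperone Calr (-0.11 ± 0.03, adjusted p = 0.0323). In each of these lists the median difference over ages was under 0.1 in size. At 24 months no regulator, partner or antigen processing gene of the lists passed in limma, against 0.971% of all promoter regions. At that age Pomp differed by 0.01 and Akirin2 by -0.03 on the log2 scale.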

How the data were processed

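ATAC-seq was measured in 12 libraries, 2 for each age and treatment. The authors trimmed reads with Cutadapt 2.8, aligned them to mm10 with Bowtie2 2.4.1, sorted them with SAMtools and called peaks per library with Genrich. The tools and versions are those of the submitters' processing notes and the study's methods, and a shift of Tn5 cut sites is one step that is not given in the sources used here. Deposited lists give each peak a score, its area under the significance curve, and the -log10 p at its summit, as the authors' caller wrote them. They hold no reads, so no count test could be run, and depth per library is unknown. Peaks on other contigs (29 to 40 per list) were left out.

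Overlapping peaks were merged and assigned to the nearest start site of GENCODE M21 basic, by distance only. Areas of regions called in all 12 libraries were log2 transformed, quantile-normalised and fitted with limma 3.58.1 (R 4.3.3), with a variance trend and Benjamini-Hochberg adjustment at 0.05. The comparison of LPS over ages was fitted with terms for age and treatment, and all other comparisons with a mean per group. Presence was compared by Fisher's exact test in regions called in 5 to 7 libraries. Python 3.11.15, pandas 2.3.3 and scipy 1.17.1 were used, and the fit was tested on simulated data. Members, lists and the rule for named genes were chosen with earlier results of these data known. The rule named immunoproteasome genes, Psmb5, Psmb6, Psmb7, Psme3 and Psme4, and every member region past a threshold. It also named members without a promoter region in all 12 libraries and the 3 highest and 3 lowest promoters. The 5 largest differences with LPS and with age were named too, as were list genes past the threshold with up to 4 more. Alternatives were the summit value, area per base, other scaling, stricter areas, coverage of 50% of a region, edge distance, a replicate block, and each library left out. RefSeq promoters (GRCm38.p6) were searched on both strands, and those of 8 member genes were not searched. Some list genes and 1 window sequence are not reported here.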

Additional observations from a re-analysis of the deposited data

Results flagged for a closer look

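The region 16.0 kb from Psmb4, a beta subunit of the core, went opposite ways at the youngest and oldest ages. At 3 months it was listed in both LPS libraries and in neither PBS library, and at 24 months in both PBS libraries and in neither LPS library. Over all regions, 2861 had the first pattern at 3 months and 1253 its reverse. At 24 months 2153 were listed in both PBS and neither LPS library, and 286 the reverse. The site thus went the more frequent way at each age, which is not a trait of this site. Its highest deposited area was 246, near the lowest area of the lists, 200. The difference between ages was not tested.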

How the results depend on the processing

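The Psma1 region 40.5 kb upstream passed over ages in all 21 alternatives. Counts of proteasome regions that passed moved more. Over ages (6) they were 3 with area per base, 11 with regions in at least 6 libraries, 12 without the 2 LPS libraries that stand apart, and 4 to 13 with 1 library left out. At 3 months (3) they were 0 with area per base, 5 with at least 6 libraries, 1 without a variance trend and 0 to 4 with 1 library left out. At 14 months (10) they were 1 with area per base, 5 at 2 times the lowest area, 6 with 50% cover and 1 to 12 with 1 library left out. At 24 months (1) they were 0 with area per base and 0 to 1 with 1 library left out. For 24 against 3 months in PBS (0) they were 1 with the summit value, 8 without the 2 LPS libraries and 0 to 5 with 1 left out. For 24 against 3 months in LPS and 14 against 3 in PBS they stayed 0 to 0, and for the difference in response 0 to 2. Presence (1) gave 0 at 2 times the lowest area, 2 with 50% cover, 0 without the 2 LPS libraries (chosen after seeing the data) and 0 to 3 with 1 left out.

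The immunoproteasome difference of -19.7 was -5.86 by edge distance, -30.9 at 2 times the lowest area, -9.45 with the Psmb9 and Tap1 region (chosen after seeing the data) and -20.8 to -18.7 with 1 library left out. LPS less PBS (1.13) was 9.51 with area per base and -0.38 to 3.74 with 1 left out. Area per base reversed Psme4 (0.21), Psmb7 (0.065), Psme1 (-0.028), Psme2 (-0.034), Psmb8 at 89 bp (0.083) and 547 bp (0.18), and the Psmb10 promoter (-0.22). With 1 library left out, the Psmb8 regions ran from -0.11 to 0.025 and from -0.10 to 0.014. Area per base moved the share of higher among all calls from 48.8% to 60.4% over ages, from 54.4% to 80.7% at 3 months, from 50.5% to 78.1% at 14 months and from 79.96% to 96.2% at 24 months, where it was 49.3% without the 2 LPS libraries. The causes were not tested.

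Deviations of same-numbered libraries correlated at -0.28 to 0.17 over 15 pairs of groups, with 1 pair over 0.1 and 3 under -0.1. Sample titles give replicate numbers only, and whether pools shared a batch was not tested. With a replicate block, 6 regions passed over ages, 1 at 3 months, 8 at 14 months and 1 at 24 months. Depth limits which sites could be listed, and 2 libraries a group limit every value within an age.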
